A study of Mus musculus with 32 samples.

Results

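The genes described here are 10 antioxidant and glutathione defence genes of mouse macrophages, namely Slc7a11, Gclm, Txnrd1, Srxn1, Prdx1, Gpx1, Gpx3, Gpx4, Sod2 and Nqo1. They were named by function among the 24885 Entrez identifiers of the deposited table, with earlier results of these data known, and all 10 were among the 11244 genes with enough counts to be tested. RNA came from bone marrow-derived macrophages of C57BL/6 mice, and 32 libraries were made, 4 per group. Genotype (T2KO, the Trem2 knockout, or WT), M-CSF (low or normal) and LPS (10 ng/ml for 4 hours, or none) were combined into 8 groups. They were T2KO low M-CSF with LPS, T2KO low M-CSF without LPS, T2KO normal M-CSF with LPS, T2KO normal M-CSF without LPS, and the same 4 conditions in WT. Both genotypes spent a night in complete RPMI that held 0.5% or 10% LCCM, a conditioned medium that supplies M-CSF. Taking low for 0.5% and normal for 10% is an inference that the labels do not spell out. The knockout mice were first made by Turnbull and colleagues. Neither the age of the mice nor the mouse or culture behind each library is given in the labels. Every p-value below therefore measures the spread between these libraries, which may be technical.

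Cells dispose of hydrogen peroxide and lipid peroxides through a pair of thiol systems, one built on glutathione and the other on thioredoxin, and of superoxide through the dismutases. Cystine brought in from outside feeds glutathione synthesis, glutathione peroxidases and peroxiredoxins spend the reducing power, and reductases restore it. Many of these genes carry antioxidant response elements (ARE) that are bound by NRF2, a factor released when KEAP1 is oxidised. In macrophages, LPS starts the production of superoxide and nitric oxide, and it induces genes of both oxidant production and oxidant defence through NF-kB and other factors.

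The start-site windows are shown for the 5 members with an ARE core match and for Sod2, whose window held an NF-kB match. Windows of Gpx1 and Gpx3, which also held an NF-kB match, are not shown. The windows were picked by match, and members shown together did not all move together. They run from 250 bases before to 50 bases after an annotated start, 5′ to 3′ in the direction of the gene, as given by RefSeq for GRCm38.p6 (mm10). Capitals mark matches, on either strand, to an ARE core (TGACNNNGC or TGAGNNNGC), an AP-1 site (TGACTCA or TGAGTCA) or an NF-kB site. An AP-1 match that runs on into GC is an ARE core match as well, so these searches overlap. The windows are Slc7a11 at chr3:50443564-50443863 (minus strand), Gclm at chr3:122245307-122245606 (plus), Txnrd1 at chr10:82858956-82859255 (plus), Srxn1 at chr2:152105274-152105573 (plus), Prdx1 at chr4:116685349-116685648 (plus) and Sod2 at chr17:13007589-13007888 (plus).
Slc7a11: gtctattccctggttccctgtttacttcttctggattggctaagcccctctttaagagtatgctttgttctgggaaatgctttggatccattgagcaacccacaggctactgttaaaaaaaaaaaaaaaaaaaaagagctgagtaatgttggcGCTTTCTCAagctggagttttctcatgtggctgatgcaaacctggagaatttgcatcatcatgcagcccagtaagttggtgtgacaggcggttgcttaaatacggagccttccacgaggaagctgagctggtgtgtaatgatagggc
Gclm: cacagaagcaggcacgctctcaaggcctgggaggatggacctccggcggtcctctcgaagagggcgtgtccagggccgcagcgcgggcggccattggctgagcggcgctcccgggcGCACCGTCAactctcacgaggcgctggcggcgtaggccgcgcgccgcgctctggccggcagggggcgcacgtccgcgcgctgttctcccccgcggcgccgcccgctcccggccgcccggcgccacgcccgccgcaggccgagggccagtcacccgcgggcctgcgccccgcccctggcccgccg
Txnrd1: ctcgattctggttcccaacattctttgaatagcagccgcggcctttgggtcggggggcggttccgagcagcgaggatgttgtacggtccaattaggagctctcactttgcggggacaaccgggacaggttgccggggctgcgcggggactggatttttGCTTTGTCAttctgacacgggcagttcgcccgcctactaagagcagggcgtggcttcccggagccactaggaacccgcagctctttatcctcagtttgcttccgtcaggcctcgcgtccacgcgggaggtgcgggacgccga
Srxn1: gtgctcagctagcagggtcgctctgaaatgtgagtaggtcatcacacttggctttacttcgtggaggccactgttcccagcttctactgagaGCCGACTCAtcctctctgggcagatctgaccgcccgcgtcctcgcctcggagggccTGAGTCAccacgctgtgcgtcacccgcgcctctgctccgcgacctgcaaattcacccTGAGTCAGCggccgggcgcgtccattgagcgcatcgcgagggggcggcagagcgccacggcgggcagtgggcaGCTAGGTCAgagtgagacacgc
Prdx1: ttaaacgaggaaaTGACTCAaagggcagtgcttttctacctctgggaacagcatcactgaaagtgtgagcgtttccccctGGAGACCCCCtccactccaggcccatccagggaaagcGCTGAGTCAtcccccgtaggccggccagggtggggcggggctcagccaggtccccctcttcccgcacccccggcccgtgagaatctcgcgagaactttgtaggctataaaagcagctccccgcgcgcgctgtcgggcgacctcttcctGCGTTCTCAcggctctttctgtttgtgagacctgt
Sod2: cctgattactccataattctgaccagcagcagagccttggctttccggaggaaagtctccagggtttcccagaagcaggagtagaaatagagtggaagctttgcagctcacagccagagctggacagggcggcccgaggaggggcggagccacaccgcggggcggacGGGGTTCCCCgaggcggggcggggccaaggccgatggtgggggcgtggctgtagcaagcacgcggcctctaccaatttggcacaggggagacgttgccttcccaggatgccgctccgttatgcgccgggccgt

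An ARE core match lay in the windows of 5 of the 10 genes, at -97 from the start in Slc7a11, -134 in Gclm, -92 in the Txnrd1 window above (1 of the 3 Txnrd1 windows), at -158, -45 and 29 in Srxn1, and at -133 and 16 in Prdx1. Among all 32851 windows of the same length, 27.8% held such a match. This share and those below count windows, while the 5 of 10 counts genes. Txnrd1 and Gpx4 had several windows each, so the gene count and the window share are not like measures. AP-1 matches lay at -102 and -45 in Srxn1 and at -237 and -131 in Prdx1, against 5.2% of all windows. The matches of Srxn1 at -45 and of Prdx1 at -131 overlapped an ARE core match. An NF-kB match, found in 8.46% of all windows, lay at -83 in Sod2, -170 in Prdx1, -55 in Gpx1 and 1 in Gpx3. The windows of Nqo1 and Gpx4 held none of the 3 motifs. A match describes letters in a window and does not show that a factor binds there.

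Total counts ranged from 3068863 to 15585423 per library (median 5596111), and the 10 genes together took 0.297% to 0.757% of the counts of a library. Trem2, the targeted gene, was lower in T2KO than in WT libraries in each condition without overlap, at 6.01 ± 2.31 CPM in T2KO and 332 ± 47.4 CPM in WT in low M-CSF with LPS (counts normalised to library size with TMM, mean ± SD, n = 4 in every group below). In low M-CSF without LPS it stood at 115 ± 13.9 in T2KO and 460 ± 70.1 CPM in WT. In normal M-CSF it stood at 5.88 ± 2.28 in T2KO and 226 ± 26.2 CPM in WT with LPS, and at 36.3 ± 4.96 in T2KO and 305 ± 46.7 CPM in WT without LPS. The libraries read 3' ends, and whether the counted end lies in the deleted part is not given in the labels. All 10 macrophage markers were detected in every group, with a summed level of 5028 to 12862 CPM, while lymphocyte and erythroid or mast cell markers summed to at most 8.71 CPM and Cd3e, Hbb-bs and Hba-a1 were at 0 in most groups. Dendritic cell markers summed to at most 21.4 CPM and stromal markers to at most 20.1 CPM, and the osteoclast markers, with Calcr at 0 in every group, summed to 1.52 to 57.4 CPM. Neutrophil markers, led by S100a9, moved with the conditions, summing to 230 to 391 CPM in T2KO low M-CSF with LPS and to 53.2 to 65.5 CPM in WT normal M-CSF without LPS. In most groups, libraries 1 and 3 and libraries 2 and 4 were more alike than other pairs. The chi-square per degree of freedom was 3.84 to 40.2 (median 6.6) in 16 such pairs and 9.68 to 88.7 (median 25.7) in 32 others. Exceptions lay in WT cells without LPS. In normal M-CSF libraries 1 and 3 stood at 40.2, against 20 for libraries 3 and 4. In low M-CSF libraries 2 and 4 stood at 18.5, against 15.1 for libraries 3 and 4. No pair agreed within sampling noise, but this does not show that like libraries came from separate samples. Each library was counted as 1 of 4. For the 10 genes, fits with the like libraries summed are given where a call then ends. Calls of other single genes below, pathway genes and cell markers included, were not checked in such fits. In these fits libraries 1 and 3 and libraries 2 and 4 were summed in every group, the exceptions included. In bulk RNA a change in the share of some cells cannot be told apart from a change in RNA per cell.

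**Figure D1:**
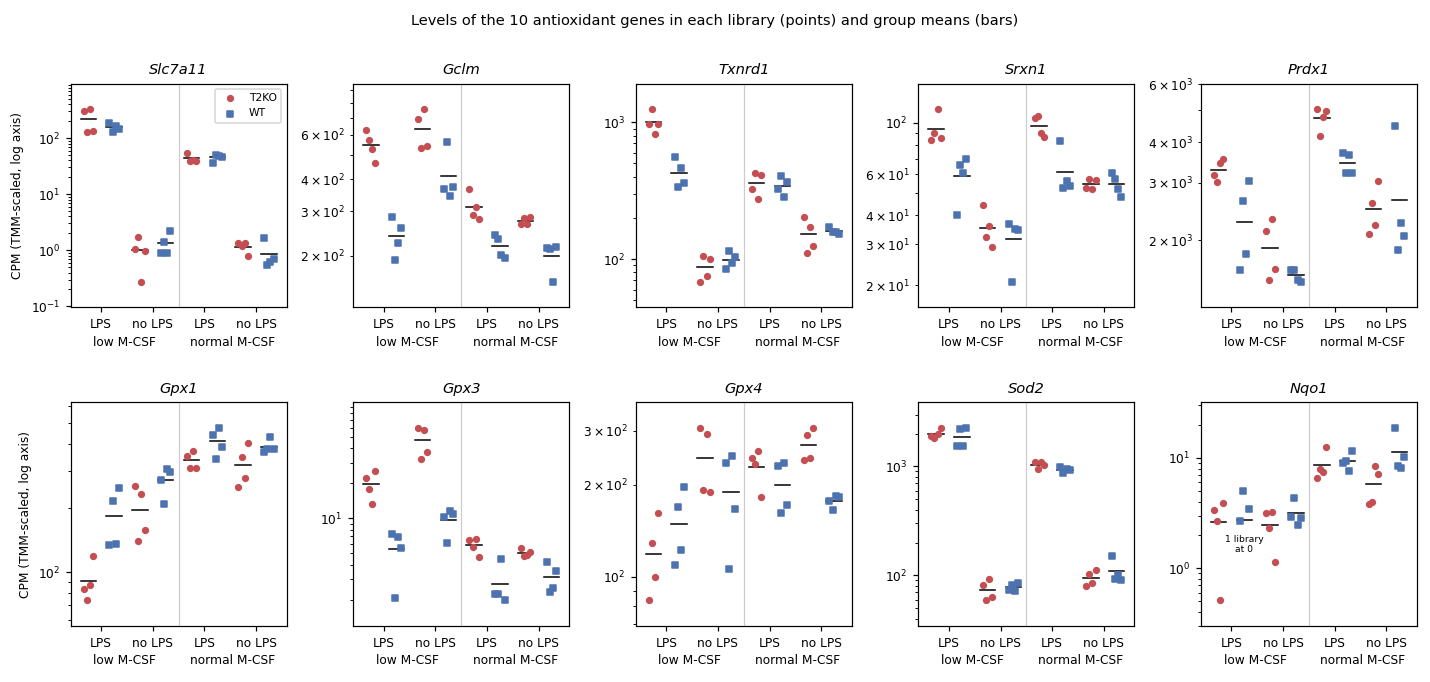
Level of each of the 10 genes in CPM on a log axis for every library, with T2KO in circles to the left of WT in squares within each condition, and bars at the group means. Slc7a11 and Sod2 separate by LPS, Gpx3 and Gclm lie highest in T2KO cells in low M-CSF, and 1 WT library has no Nqo1 count.

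The genotype comparison asked how macrophages without Trem2 differ from WT in each medium, with and without LPS. In low M-CSF with LPS, T2KO cells had about 2-fold more Gclm and Txnrd1 transcript, more Gpx3 and Srxn1, and less Gpx1 than WT cells. Gpx3 was the member with the widest genotype difference, 4.8-fold higher in T2KO in low M-CSF without LPS. Of the 10 genes, 4 rose and 1 fell in T2KO against WT in low M-CSF with LPS, where 8.20% of all genes tested rose and 10.9% fell (edgeR quasi-likelihood test). A gene was called where the p adjusted over 11244 genes was under 0.05, here and below. In low M-CSF without LPS 2 rose and 0 fell, against 7.74% and 8.97% of all genes. In normal M-CSF with LPS 2 rose and 0 fell, against 1.98% and 2.05%. In normal M-CSF without LPS 0 rose and 0 fell with edgeR, and 0 passed with DESeq2, against 0.747% and 1.11% of all genes, while 4 of the 10 had an unadjusted edgeR p under 0.05.

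**Figure D2:**
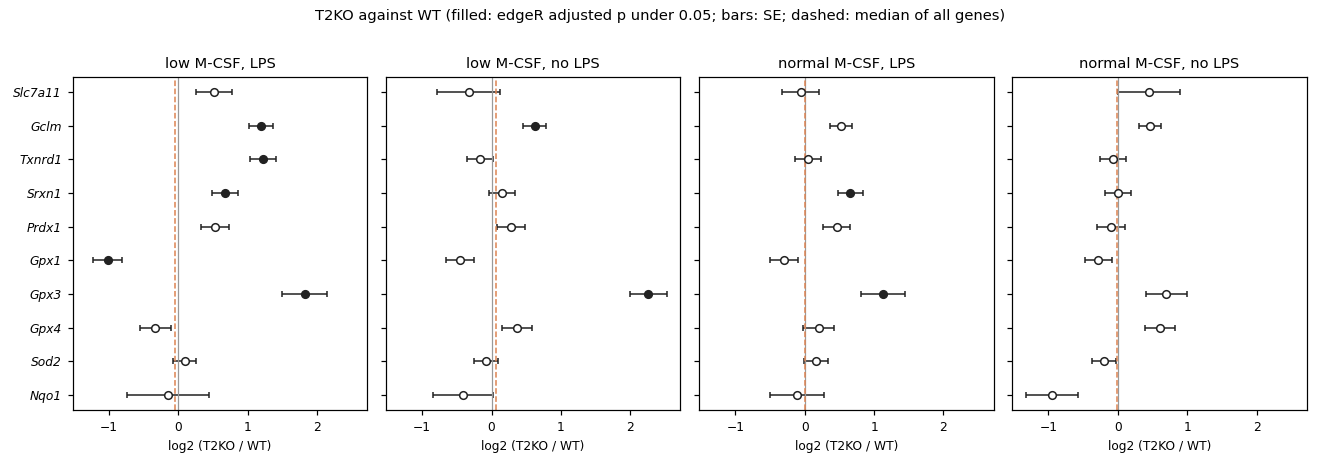
Log2 difference of T2KO over WT for the 10 genes in each condition, with the standard error, filled where the edgeR adjusted p was under 0.05, and a dashed line at the median of all genes tested. Gpx3 and Gclm lie to the right in all 4 conditions and Gpx1 to the left in all 4, with differences that pass the test mainly in low M-CSF.

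Reads of Gclm could be shared with the overlapping Gm46822 and Gm6061, and reads of Txnrd1 with Gm38560 and with Eid3, which held 484 counts against 55765 for Txnrd1. Gclm encodes the modifier subunit of glutamate-cysteine ligase, the enzyme that limits glutathione synthesis (Entrez 14630, chromosome 3, 122245487 to 122267215). In low M-CSF with LPS it stood at 624, 571, 525 and 465 CPM in T2KO libraries 1 to 4 and at 283, 193, 225 and 257 CPM in WT libraries. The groups did not overlap, and the log2 difference was 1.19 ± 0.17 (SE, edgeR adjusted p = 3.79e-06), or 2.28-fold. Without LPS in low M-CSF the values were 693, 533, 755 and 542 CPM in T2KO and 367, 560, 343 and 374 CPM in WT, where WT library 2 reached into the T2KO range. This difference of 0.62 ± 0.16 (edgeR adjusted p = 0.0068) did not pass with like libraries summed (adjusted p = 0.207) or with only these groups in the fit (0.0749), within a range of 6.65e-04 to 0.207 over all alternatives. In normal M-CSF the T2KO libraries also lay above every WT library, at 279 to 367 against 195 to 242 CPM with LPS and 266 to 284 against 158 to 216 CPM without, but the differences of 0.52 ± 0.16 and 0.46 ± 0.16 did not pass (edgeR adjusted p = 0.0665 and 0.183). With LPS the normal M-CSF difference passed with DESeq2 (adjusted p = 0.0297), with only these groups in the fit (0.0201) and without WT low M-CSF library 2 of the cells without LPS (0.0429). Slc7a11, the cystine carrier of system xc- (Entrez 26570, chromosome 3, 50364936 to 50499087), passed in none of the 4 genotype comparisons. Its level in low M-CSF with LPS was 302, 128, 327 and 137 CPM in T2KO and 184, 131, 168 and 143 CPM in WT, so that T2KO libraries 1 and 3 lay above all WT libraries and libraries 2 and 4 within or below their range.

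Txnrd1, the cytosolic reductase that keeps thioredoxin reduced (Entrez 50493, chromosome 10, 82833951 to 82897724), differed by genotype in 1 condition. In low M-CSF with LPS it stood at 970, 1243, 817 and 977 CPM in T2KO and 554, 337, 465 and 361 CPM in WT. The lowest T2KO library lay above the highest WT library, with a log2 difference of 1.22 ± 0.19 (edgeR adjusted p = 2.38e-05). In the 3 other conditions the differences lay between -0.17 and 0.05, with overlapping groups. Srxn1 encodes sulfiredoxin, which repairs over-oxidised peroxiredoxins (Entrez 76650, chromosome 2, 152105524 to 152111376). With LPS it stood at 84.0, 90.3, 114 and 85.9 CPM in T2KO and 40.1, 65.7, 61.0 and 69.7 CPM in WT in low M-CSF, and at 105, 107, 90.1 and 86.3 CPM in T2KO and 83.7, 52.4, 56.0 and 53.2 CPM in WT in normal M-CSF. The groups did not overlap in either medium, and the differences were 0.67 ± 0.19 and 0.66 ± 0.18 (edgeR adjusted p = 0.0116 and 0.0349). Both were lost with like libraries summed (adjusted p = 0.14 and 0.552). The low M-CSF difference was lost without T2KO library 3 (0.0554) or WT library 1 (0.0559), and the normal M-CSF difference without T2KO library 1, 2 or 3 or WT library 2, 3 or 4 (0.0617 to 0.155). Prdx1, an abundant cytosolic peroxiredoxin that reduces hydrogen peroxide (Entrez 18477, chromosome 4, 116685599 to 116700000), did not pass in any genotype comparison with edgeR. Its level in low M-CSF with LPS was 3165, 3018, 3448 and 3553 CPM in T2KO and 1625, 2634, 1818 and 3051 CPM in WT, a difference of 0.53 ± 0.20 (edgeR adjusted p = 0.0637) with WT libraries 1 and 3 lowest and WT library 4 inside the T2KO range. It passed with DESeq2 (adjusted p = 0.0215), with RLE size factors (0.0328) and without WT library 4 (0.0241) or WT normal M-CSF library 1 without LPS (0.0188). In normal M-CSF with LPS the 4 T2KO libraries, at 4164 to 5036 CPM, lay above the WT libraries, at 3209 to 3715 CPM. That difference of 0.46 ± 0.20 did not pass (edgeR adjusted p = 0.239) except with only these groups in the fit (0.0148).

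The glutathione peroxidases differed from each other. Gpx3 encodes the secreted peroxidase (Entrez 14778, chromosome 11, 54902854 to 54910387), and it was low, at 1.98 to 59.7 CPM over all libraries. In low M-CSF without LPS it stood at 59.7, 32.1, 57.1 and 37.4 CPM in T2KO and 10.2, 6.15, 11.5 and 10.9 CPM in WT, a log2 difference of 2.26 ± 0.27 (edgeR adjusted p = 4.98e-08). In low M-CSF with LPS it stood at 22.2, 17.7, 13.3 and 25.7 CPM in T2KO and 7.29, 2.07, 6.87 and 5.56 CPM in WT, a difference of 1.82 ± 0.32 (edgeR adjusted p = 9.78e-05). Every T2KO library lay above every WT library in both conditions, and both calls held under each alternative tried. In normal M-CSF with LPS, levels of 6.55, 5.69, 6.67 and 4.65 CPM in T2KO and 2.25, 2.24, 4.43 and 1.98 CPM in WT gave 1.13 ± 0.32 (edgeR adjusted p = 0.0365), on 8 to 57 counts per library. That call was lost with like libraries summed (adjusted p = 0.224), with only these groups in the fit (0.0543), and without T2KO library 1, 2 or 3 or WT library 1, 2 or 4 (0.0616 to 0.141). Without LPS in normal M-CSF the T2KO libraries, at 4.71 to 5.59 CPM, again lay above the WT libraries, at 2.31 to 4.19 CPM, with a difference of 0.70 ± 0.29 that did not pass (edgeR adjusted p = 0.304).

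Neutrophil markers were also higher in T2KO than in WT cells in low M-CSF without LPS, where 6 of the 8 tested rose. Their summed level there was 151 to 219 CPM in T2KO and 59.9 to 97.9 CPM in WT. With LPS 1 of 8 rose (summed level 230 to 391 CPM in T2KO and 179 to 206 CPM in WT). The shares of all genes that rose were 7.74% without LPS and 8.20% with LPS, so the count with LPS was close to that share. S100a9 stood at 86.0 ± 13.6 in T2KO and 40.9 ± 8.33 CPM in WT without LPS. In normal M-CSF 0 of the 8 passed with edgeR, and 0 of the 8 had an unadjusted p under 0.05. Their part in the Gpx3 and Gclm differences was not tested. Gpx1, the abundant peroxidase of cytosol and mitochondria (Entrez 14775, chromosome 9, 108339080 to 108340342), was lower in T2KO cells in low M-CSF with LPS, at 83.1, 74.0, 87.3 and 119 CPM in T2KO and 134, 216, 136 and 248 CPM in WT. The groups did not overlap, and the log2 difference was -1.02 ± 0.21 (edgeR adjusted p = 6.10e-04), or 2.02-fold lower. With like libraries summed it narrowly missed the threshold (adjusted p = 0.0575), the highest value over the alternatives, whose lowest was 1.04e-04. Without LPS the T2KO and WT ranges overlapped, at 141 to 255 and 210 to 304 CPM, and the difference of -0.46 ± 0.20 did not pass (edgeR adjusted p = 0.112) except without T2KO library 1 (0.0497). Gpx4, the selenoenzyme that reduces lipid peroxides in membranes (Entrez 625249, chromosome 10, 80047166 to 80056439), did not pass in any genotype comparison. In normal M-CSF without LPS its 4 T2KO libraries, at 241 to 306 CPM, all lay above the WT libraries, at 165 to 184 CPM, a difference of 0.61 ± 0.22 (edgeR adjusted p = 0.194) that passed with only these groups in the fit (0.047).

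Sod2, the manganese superoxide dismutase of mitochondria (Entrez 20656, chromosome 17, 13007839 to 13018119), and Nqo1, a quinone reductase widely used as a readout of NRF2 activity (Entrez 18104, chromosome 8, 107388225 to 107403205), passed in none of the 4 genotype comparisons. For Sod2 the log2 differences lay between -0.20 and 0.16, with overlapping groups in each condition. Those of Nqo1 lay between -0.95 and -0.11, on 0 to 241 counts per library.

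Among 115 other genes of the antioxidant pathways, grouped in 10 lists, 100 were tested. In T2KO against WT, 13 of the 100 rose and 8 fell in low M-CSF with LPS, 19 rose and 6 fell in low M-CSF without LPS, 8 rose and 0 fell in normal M-CSF with LPS, and 2 rose and 1 fell in normal M-CSF without LPS. The shares of all genes tested were 8.20% and 10.9%, 7.74% and 8.97%, 1.98% and 2.05%, and 0.747% and 1.11% in the same order, so that the count in low M-CSF with LPS was close to the share of all genes. Selenop, the secreted selenium carrier, rose in all 4 conditions, at 2753 ± 312 in T2KO and 1082 ± 153 CPM in WT in low M-CSF without LPS (log2 difference 1.35 ± 0.17, edgeR adjusted p = 1.10e-07) and at 272 ± 40.1 in T2KO and 152 ± 21.7 CPM in WT in normal M-CSF with LPS (0.84 ± 0.17, edgeR adjusted p = 0.00147). Nos2, the inducible nitric oxide synthase, rose with LPS in both media, at 257 ± 162 in T2KO and 93.2 ± 30.2 CPM in WT in low M-CSF and 203 ± 20.2 in T2KO and 84.4 ± 20.9 CPM in WT in normal M-CSF. Hpgds, the haematopoietic prostaglandin D synthase of the glutathione transferase family, stood at 259 ± 54.7 in T2KO and 122 ± 25.9 CPM in WT in low M-CSF with LPS. The metallothionein Mt2 went the other way there, at 195 ± 37.4 in T2KO and 478 ± 147 CPM in WT, a log2 difference of -1.30 ± 0.19 (edgeR adjusted p = 8.91e-06), as did the microsomal transferase Mgst3, at 26.4 ± 8.54 in T2KO and 54.5 ± 16.8 CPM in WT.

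In the list of NRF2 and its regulators, 4 of 10 rose and 0 fell in T2KO against WT in low M-CSF with LPS, with a median log2 difference of 0.30 against -0.05 over all genes tested. Nfe2l2, which encodes NRF2 and was picked out after its values were seen, stood there at 1382 ± 144 in T2KO and 844 ± 228 CPM in WT (0.71 ± 0.23, edgeR adjusted p = 0.0285). Sqstm1, an autophagy receptor that binds KEAP1, was the regulator that rose in normal M-CSF without LPS, at 368 ± 19.2 in T2KO and 214 ± 6.73 CPM in WT (0.79 ± 0.15, edgeR adjusted p = 8.59e-04). Of 17 other NRF2 target genes, 0 rose and 2 fell in low M-CSF with LPS (median -0.02), and 6 rose and 3 fell in low M-CSF without LPS (median 0.27 against 0.07 over all genes). Among all genes tested 8.20% rose and 10.9% fell with LPS, so the count of targets that fell was close to that share. Without LPS 7.74% rose and 8.97% fell. Gclc, the catalytic partner of Gclm and likewise picked out after its values were seen, did not pass in any genotype comparison, with log2 differences of -0.32 to 0.47.

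The LPS comparison asked how the same genes respond to a bacterial signal. Slc7a11 and Sod2 rose steeply in both genotypes and media, Txnrd1 rose in all 4 comparisons by amounts that varied with medium and genotype, and Srxn1 and Prdx1 rose in 3 each. Gpx1 and Gpx3 fell in low M-CSF in both genotypes, Gpx4 fell in T2KO cells in low M-CSF, and Gclm fell in WT cells in low M-CSF. No member fell in normal M-CSF. The counts were 5 higher and 3 lower in T2KO low M-CSF (26.5% and 41.0% of all genes tested), 5 higher and 3 lower in WT low M-CSF (27.0% and 33.6%), 5 higher and 0 lower in T2KO normal M-CSF (20.9% and 21.8%), and 3 higher and 0 lower in WT normal M-CSF (18.3% and 17.9%). The median log2 change of all genes was -0.36 in T2KO and -0.18 in WT cells in low M-CSF, and near 0 in normal M-CSF.

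**Figure D3:**
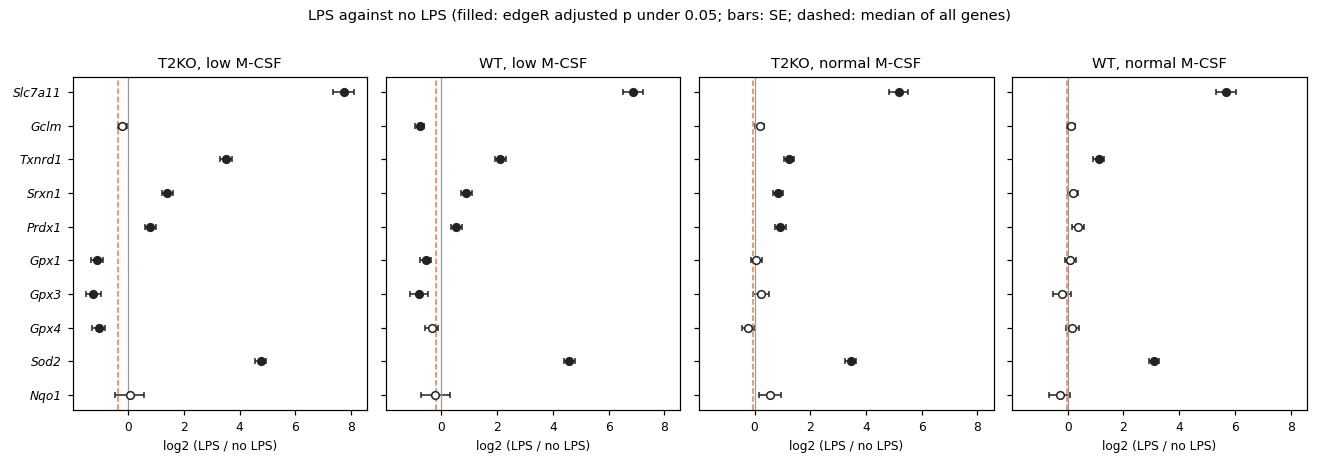
Log2 difference of LPS over no LPS for the 10 genes in each genotype and medium, with the standard error, filled where the edgeR adjusted p was under 0.05, and a dashed line at the median of all genes tested. Slc7a11 and Sod2 lie far to the right in every panel, and the 3 glutathione peroxidases lie left of 0 only in low M-CSF among the values that pass.

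Slc7a11 was close to the detection limit without LPS, with 3 to 24 counts and 0.275 to 2.18 CPM per library. With LPS it reached 128 to 327 CPM in T2KO and 131 to 184 CPM in WT cells in low M-CSF. In normal M-CSF the LPS values were 54.8, 39.3, 41.4 and 38.7 CPM in T2KO and 36.2, 51.0, 48.1 and 46.5 CPM in WT. No library with LPS overlapped one without it. The log2 increases were 7.73 ± 0.37 in T2KO and 6.88 ± 0.37 in WT cells in low M-CSF and 5.17 ± 0.35 in T2KO and 5.67 ± 0.36 in WT cells in normal M-CSF (largest edgeR adjusted p = 3.83e-15). Gclm, which acts after cystine import, did not follow it. In WT cells in low M-CSF it fell, to 193 to 283 CPM with LPS against 343 to 560 CPM without, a log2 change of -0.78 ± 0.17 (edgeR adjusted p = 1.10e-04). In T2KO cells in low M-CSF it stood at 465 to 624 CPM with LPS and 533 to 755 CPM without, overlapping groups with a change of -0.21 ± 0.16 that did not pass (edgeR adjusted p = 0.26).

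Txnrd1 rose to 817 to 1243 CPM with LPS, against 68.5 to 106 CPM without, in T2KO cells in low M-CSF, a log2 change of 3.51 ± 0.21 or 11.4-fold. In WT cells in low M-CSF it rose to 337 to 554 CPM, against 84.6 to 114 CPM without LPS, a change of 2.12 ± 0.20. In normal M-CSF the increases were smaller, at 1.24 ± 0.19 in T2KO (275 to 424 with LPS and 110 to 204 CPM without) and 1.11 ± 0.19 in WT cells (284 to 404 with LPS and 152 to 171 CPM without). Groups with and without LPS did not overlap in any of the 4 pairs, and the largest edgeR adjusted p was 1.28e-05. Srxn1 stood at 84.0 to 114 with LPS and 29.2 to 44.2 CPM without in T2KO cells in low M-CSF (1.41 ± 0.19, edgeR adjusted p = 3.56e-08). In WT cells in low M-CSF it stood at 40.1 to 69.7 with LPS and 20.7 to 36.5 CPM without (0.90 ± 0.19, edgeR adjusted p = 1.24e-04), and in T2KO cells in normal M-CSF at 86.3 to 107 with LPS and 51.9 to 57.4 CPM without (0.83 ± 0.18, edgeR adjusted p = 3.28e-04). None of these groups overlapped. In WT cells in normal M-CSF it stood at 83.7, 52.4, 56.0 and 53.2 CPM with LPS and 61.0, 57.1, 51.8 and 48.0 CPM without, a change of 0.18 ± 0.18 that did not pass (edgeR adjusted p = 0.491).

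Prdx1 was the most abundant of the 10, at 1497 to 5036 CPM. It rose in T2KO cells to 3018 to 3553 CPM with LPS, against 1514 to 2319 CPM without, in low M-CSF (0.79 ± 0.20, edgeR adjusted p = 9.25e-04), and to 4164 to 5036 CPM with LPS, against 2096 to 3032 CPM without, in normal M-CSF (0.93 ± 0.21, edgeR adjusted p = 3.24e-04). TMM scaling factors in T2KO cells in low M-CSF were 0.598 to 0.671 with LPS and 1.172 to 1.243 without. The direction of small LPS changes in low M-CSF, that of Prdx1 included, rests on this scaling. In WT cells 1 library stood apart. In normal M-CSF, WT libraries had 3715, 3215, 3642 and 3209 CPM with LPS and 4468, 1877, 2264 and 2068 CPM without, and the change of 0.37 ± 0.20 did not pass (edgeR adjusted p = 0.163). Without library 1 of the WT cells in normal M-CSF without LPS it was 0.71 (edgeR adjusted p = 0.00189). In low M-CSF the WT groups overlapped, at 1625 to 3051 with LPS and 1497 to 1629 CPM without. That change of 0.54 ± 0.20 (edgeR adjusted p = 0.0217) was lost with like libraries summed (0.133), without WT library 2 or 4 with LPS (0.0815 and 0.149) and without WT library 1, 3 or 4 of the cells without LPS (0.0503 to 0.0699). Reads of Prdx1 could be shared with its pseudogene copy Prdx1-ps, and with the overlapping RNA AV051173, which held 318 counts against 628939 for Prdx1.

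The 3 glutathione peroxidases fell with LPS in T2KO cells in low M-CSF. Gpx1 stood at 83.1, 74.0, 87.3 and 119 CPM with LPS and 255, 141, 232 and 158 CPM without, Gpx3 at 22.2, 17.7, 13.3 and 25.7 CPM with LPS and 59.7, 32.1, 57.1 and 37.4 CPM without, and Gpx4 at 83.7, 129, 99.9 and 161 CPM with LPS and 307, 192, 293 and 189 CPM without. The groups did not overlap for any of the 3, and the log2 changes were -1.12 ± 0.21, -1.25 ± 0.26 and -1.06 ± 0.23 (edgeR adjusted p = 1.21e-05, 9.40e-05 and 1.14e-04), against a median of -0.36 over all genes. In this comparison 41.0% of all genes tested fell, and the share of all genes without overlap was not computed. In WT cells in low M-CSF, Gpx1 also fell, to 134 to 248 CPM with LPS against 210 to 304 CPM without (-0.56 ± 0.20, edgeR adjusted p = 0.016). Gpx3 fell to 2.07 to 7.29 CPM with LPS, against 6.15 to 11.5 CPM without (-0.81 ± 0.32, edgeR adjusted p = 0.0272). The WT groups overlapped for both genes. Both WT calls were lost with like libraries summed (0.163 and 0.0882). That of Gpx1 was also lost without WT library 1 (0.0641) or 3 (0.0637) with LPS, and that of Gpx3 with only these groups in the fit (0.086), without WT library 2 with LPS (0.125) or without WT library 3 without LPS (0.054). For Gpx4 in WT cells in low M-CSF the change of -0.35 ± 0.23 did not pass (edgeR adjusted p = 0.178), and it passed without WT library 2 of the cells without LPS (-0.55, 0.0309). In both groups of this comparison the pairs of like libraries differed in Gpx4, with WT values of 109, 169, 122 and 196 CPM with LPS and 236, 106, 249 and 167 CPM without. Reads of Gpx4 could be shared with its pseudogene copies Gpx4-ps1 and Gpx4-ps2. In normal M-CSF, changes of the 3 peroxidases lay between -0.24 and 0.22 and did not pass.

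Sod2 rose with LPS to 1913, 1834, 1999 and 2256 CPM, against 81.0, 59.2, 92.2 and 63.2 CPM without LPS, in T2KO cells in low M-CSF, a log2 change of 4.76 ± 0.20 or 27.1-fold. In WT cells in low M-CSF it reached 1535, 2202, 1544 and 2261 CPM with LPS, against 74.1, 82.2, 71.5 and 84.4 CPM without, a change of 4.59 ± 0.20. The increases in normal M-CSF were 3.45 ± 0.19 in T2KO (942 to 1098 with LPS and 80.1 to 113 CPM without) and 3.10 ± 0.18 in WT cells (879 to 981 with LPS and 90.9 to 151 CPM without). The largest of the 4 edgeR adjusted p-values was 6.24e-17. Nqo1 did not pass for LPS in any of the 4 comparisons, with changes of -0.28 to 0.56 on levels of 0 to 18.7 CPM. In 1 WT library in low M-CSF with LPS no Nqo1 read was counted, which allows up to 3 counts. This limit covers counting error only, because PCR copies of 1 molecule may be counted more than once.

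Among the other pathway genes, 34 of 100 rose and 36 fell with LPS in T2KO low M-CSF, 36 rose and 21 fell in WT low M-CSF, 35 rose and 6 fell in T2KO normal M-CSF, and 30 rose and 6 fell in WT normal M-CSF. Among all genes tested 26.5% rose and 41.0% fell, 27.0% and 33.6%, 20.9% and 21.8%, and 18.3% and 17.9% in the same order. Of 9 oxidant sources tested, 7 rose in T2KO low M-CSF, 8 in WT low M-CSF, 7 in T2KO normal M-CSF and 8 in WT normal M-CSF. Nos2 reached 257 ± 162 CPM with LPS in T2KO low M-CSF, against 0.761 ± 0.362 CPM without, and Nox1, a superoxide-producing NADPH oxidase, 26.6 ± 3.89 CPM with LPS in WT normal M-CSF, against 1.94 ± 1.06 CPM without. Maff, a small MAF partner of NRF2, rose to 63.4 ± 16.2 CPM with LPS in T2KO low M-CSF, against 2.04 ± 1.39 CPM without (log2 change 5.08 ± 0.31, edgeR adjusted p = 4.22e-17). Gch1, which starts tetrahydrobiopterin synthesis, rose to 263 ± 77.8 CPM with LPS in WT low M-CSF, against 9.24 ± 0.502 CPM without (4.83 ± 0.24, edgeR adjusted p = 1.30e-19).

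Among the genes that fell with LPS, Sesn1, a stress-induced sestrin, fell to 5.66 ± 2.01 CPM with LPS, against 126 ± 25.4 CPM without, in T2KO low M-CSF (log2 change -4.46 ± 0.27, edgeR adjusted p = 3.47e-17), and it fell in the 3 other comparisons too. Txnip, which binds and inhibits thioredoxin, stood at 125 ± 10.6 with LPS and 697 ± 22.3 CPM without in WT low M-CSF (-2.48 ± 0.16, edgeR adjusted p = 6.47e-16) and at 146 ± 19.9 with LPS and 342 ± 19.7 CPM without in T2KO normal M-CSF (-1.23 ± 0.16). Osgin1, an NRF2 target gene, fell to 0.871 ± 0.793 CPM with LPS, against 14.4 ± 3.58 CPM without, in T2KO low M-CSF (-3.88 ± 0.46, edgeR adjusted p = 2.66e-09). Gsr, the reductase that restores glutathione, was picked out after its values were seen, and it rose in all 4 comparisons, to 195 ± 20.7 CPM with LPS, against 49.6 ± 10.7 CPM without, in T2KO low M-CSF, and to 227 ± 41.0 CPM with LPS, against 35.1 ± 2.17 CPM without, in WT low M-CSF. Of 8 neutrophil markers tested, 2 rose with LPS in T2KO low M-CSF, 4 in WT low M-CSF, 5 in T2KO normal M-CSF and 4 in WT normal M-CSF. The shares of all genes that rose were 26.5%, 27.0%, 20.9% and 18.3% in the same order, so the first count was close to that share. The part of neutrophil markers in these changes was not tested.

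The medium comparison asked what low M-CSF, the shortage of the factor that keeps macrophages alive, does to the same genes. Nqo1 and Gpx1 were lower and Gpx3 higher in low than in normal M-CSF in all 4 comparisons. Without LPS, Gclm rose while Txnrd1 and Srxn1 fell in both genotypes. With LPS, Slc7a11 and Sod2 were higher in low M-CSF in both genotypes, and Txnrd1 and Gclm were higher in T2KO cells. The counts were 5 higher and 4 lower in T2KO with LPS (26.5% and 32.8% of all genes tested), 3 higher and 3 lower in WT with LPS (21.4% and 24.2%), 2 higher and 4 lower in T2KO without LPS (26.6% and 21.7%), and 2 higher and 6 lower in WT without LPS (22.4% and 21.9%).

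**Figure D4:**
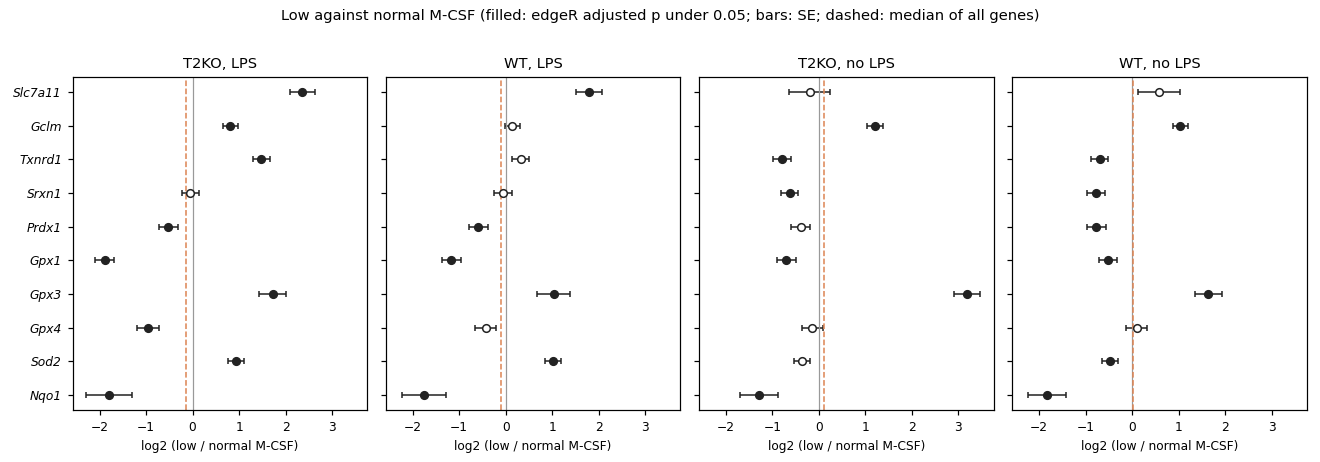
Log2 difference of low over normal M-CSF for the 10 genes in each genotype with and without LPS, with the standard error, filled where the edgeR adjusted p was under 0.05, and a dashed line at the median of all genes tested. Nqo1 and Gpx1 lie left and Gpx3 right in all 4 panels, while Slc7a11, Txnrd1 and Sod2 lie right of 0 by their largest margins in the panels with LPS.

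Gclm stood at 693, 533, 755 and 542 CPM in low and 267, 282, 266 and 284 CPM in normal M-CSF in T2KO cells without LPS, a log2 difference of 1.20 ± 0.17 (edgeR adjusted p = 1.69e-07). In WT cells without LPS the difference was 1.04 ± 0.16, with 343 to 560 CPM in low and 158 to 216 CPM in normal M-CSF (edgeR adjusted p = 3.34e-06). The groups did not overlap in either genotype. With LPS it was 0.81 ± 0.16 in T2KO (edgeR adjusted p = 6.76e-05) and 0.14 ± 0.16 in WT cells, where it did not pass (0.516). Slc7a11 with LPS stood 5.15-fold higher in low than in normal M-CSF in T2KO cells (2.36 ± 0.27, edgeR adjusted p = 2.89e-09) and 3.45-fold higher in WT cells (1.79 ± 0.27, edgeR adjusted p = 1.17e-06). Without LPS, at about 1 CPM, it did not pass in either genotype.

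Txnrd1 changed in opposite directions with and without LPS in T2KO cells. Without LPS it stood at 68.5, 106, 75.4 and 101 CPM in low and 204, 110, 171 and 124 CPM in normal M-CSF, a log2 difference of -0.79 ± 0.19 (edgeR adjusted p = 8.71e-04), and with LPS it was higher by 1.48 ± 0.19 (edgeR adjusted p = 5.02e-08). In WT cells it differed by -0.70 ± 0.19 without LPS (84.6 to 114 in low and 152 to 171 CPM in normal M-CSF, edgeR adjusted p = 0.00334) and by 0.32 ± 0.19 with LPS, where it did not pass (0.18). With like libraries summed, the differences without LPS were lost in T2KO (adjusted p = 0.0577) and in WT cells (0.101). Srxn1 was lower in low M-CSF without LPS, with a log2 difference of -0.63 ± 0.18 in T2KO (edgeR adjusted p = 0.00482, lost with like libraries summed at 0.0648) and of -0.78 ± 0.19 in WT cells (edgeR adjusted p = 7.86e-04). With LPS its differences of -0.05 and -0.06 did not pass.

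Prdx1 was lower in low M-CSF with LPS, at 3018 to 3553 in low and 4164 to 5036 CPM in normal M-CSF in T2KO cells (-0.52 ± 0.20, edgeR adjusted p = 0.0271) and at 1625 to 3051 in low and 3209 to 3715 CPM in normal M-CSF in WT cells (-0.59 ± 0.20, edgeR adjusted p = 0.0167). The groups did not overlap, but the T2KO call was lost with RLE size factors (0.135), with DESeq2 (0.13), with like libraries summed (0.174) and without T2KO low M-CSF library 1 or 2 or normal M-CSF library 1, 3 or 4 (0.0529 to 0.0756). The WT call was lost with like libraries summed (0.151) and without WT low M-CSF library 1 (0.0821) or 3 (0.0683). In WT cells without LPS the difference of -0.77 ± 0.20 (edgeR adjusted p = 0.00247) became -0.37 (0.0936) without normal M-CSF library 1, the library at 4468 CPM. It was also lost with like libraries summed (0.0762). In T2KO cells without LPS the groups overlapped, at 1514 to 2319 in low and 2096 to 3032 CPM in normal M-CSF, and the difference of -0.39 ± 0.20 passed with only these groups in the fit (0.0311) but not with all 8 (edgeR adjusted p = 0.113).

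Gpx3 rose in low M-CSF in all 4 comparisons, and most in T2KO cells without LPS, at 59.7, 32.1, 57.1 and 37.4 CPM in low and 5.59, 4.71, 4.81 and 5.12 CPM in normal M-CSF. That log2 difference was 3.19 ± 0.28 or 9.15-fold (edgeR adjusted p = 6.52e-12), against 1.64 ± 0.29 in WT cells without LPS (1.58e-05). With LPS the differences were 1.72 ± 0.29 in T2KO (edgeR adjusted p = 4.91e-06) and 1.03 ± 0.35 in WT cells (0.0169). The WT difference with LPS was lost with only these groups in the fit (0.0792) and without low M-CSF library 1 (0.0886) or 3 (0.0598) or normal M-CSF library 1 (0.0528). Beside it, neutrophil markers summed to 151 to 219 CPM in low and 54.6 to 61.2 CPM in normal M-CSF in T2KO cells without LPS, where 6 of 8 rose. They rose too in T2KO with LPS (5 of 8, 230 to 391 in low and 87.3 to 140 CPM in normal M-CSF), in WT with LPS (4 of 8, 179 to 206 in low and 102 to 122 CPM in normal M-CSF) and in WT without LPS (2 of 8, 59.9 to 97.9 in low and 53.2 to 65.5 CPM in normal M-CSF). The shares of all genes that rose were 26.6%, 26.5%, 21.4% and 22.4% in the same order, so the last count was close to that share. The part of neutrophil markers in the Gpx3 differences was not tested.

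Gpx1 went the other way. With LPS it stood at 83.1, 74.0, 87.3 and 119 CPM in low and 352, 309, 370 and 309 CPM in normal M-CSF in T2KO cells, a log2 difference of -1.89 ± 0.21 or 3.70-fold lower (edgeR adjusted p = 1.57e-09). In WT cells with LPS it stood at 134, 216, 136 and 248 CPM in low and 441, 342, 476 and 389 CPM in normal M-CSF, a difference of -1.17 ± 0.20 (edgeR adjusted p = 1.43e-05). Without LPS the differences were smaller, at -0.70 ± 0.20 in T2KO (edgeR adjusted p = 0.00391, lost with like libraries summed at 0.0788) and -0.52 ± 0.20 in WT cells (0.032). The WT call without LPS was lost with like libraries summed (0.201), without low M-CSF library 1 or 2, and without any 1 of the 4 normal M-CSF libraries (0.0516 to 0.117). Gpx4 passed in 1 medium comparison, T2KO cells with LPS, at 83.7 to 161 in low and 182 to 257 CPM in normal M-CSF (-0.96 ± 0.23, edgeR adjusted p = 4.58e-04). In WT cells with LPS its difference of -0.43 ± 0.23 did not pass (0.12), and it passed without low M-CSF library 4 (-0.58, 0.0451).

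Sod2 with LPS was about 2-fold higher in low than in normal M-CSF, by 0.94 ± 0.17 in T2KO (edgeR adjusted p = 1.11e-05) and 1.02 ± 0.17 in WT cells (7.76e-06), without overlap. Without LPS its T2KO difference of -0.36 ± 0.17 did not pass (edgeR adjusted p = 0.0749) except with only these groups in the fit (0.0477) or without T2KO low M-CSF library 3 (0.0377). It was lower in WT cells, with a difference of -0.48 ± 0.17 (edgeR adjusted p = 0.0206), with 71.5 to 84.4 in low and 151, 92.9, 100 and 90.9 CPM in normal M-CSF. That call was lost with like libraries summed (0.215), without low M-CSF library 1 (0.0678) or 3 (0.0738), and without normal M-CSF library 1, at 151 CPM, where the difference was -0.25 (0.234). Nqo1 was low everywhere, with 2 to 241 counts in the libraries that had any. Its group means in low M-CSF were 2.61 ± 1.49 in T2KO and 2.76 ± 2.07 CPM in WT with LPS and 2.47 ± 0.976 in T2KO and 3.16 ± 0.823 CPM in WT without. In normal M-CSF they were 8.61 ± 2.73 in T2KO and 9.39 ± 1.66 CPM in WT with LPS and 5.82 ± 2.29 in T2KO and 11.3 ± 5 CPM in WT without. The low M-CSF libraries lay below the normal ones in all 4 pairs, with log2 differences of -1.80 ± 0.49 in T2KO with LPS, -1.76 ± 0.48 in WT with LPS, -1.29 ± 0.41 in T2KO without LPS and -1.83 ± 0.41 in WT without LPS (edgeR adjusted p = 0.00171, 0.00303, 0.00954 and 3.61e-04). The third of these was lost without T2KO low M-CSF library 4 (0.0633) or normal M-CSF library 3 (0.0651).

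Among the other pathway genes, 22 of 100 rose and 38 fell in low against normal M-CSF in T2KO with LPS, 22 rose and 28 fell in WT with LPS, 25 rose and 25 fell in T2KO without LPS, and 18 rose and 29 fell in WT without LPS. Among all genes tested 26.5% rose and 32.8% fell, 21.4% and 24.2%, 26.6% and 21.7%, and 22.4% and 21.9% in the same order. Selenop rose in all 4 comparisons, to 2753 ± 312 in low against 283 ± 57.5 CPM in normal M-CSF in T2KO without LPS (log2 difference 3.28 ± 0.18, edgeR adjusted p = 3.26e-17). Mgst1, a microsomal glutathione transferase, stood at 185 ± 39.5 in low and 24.6 ± 4.51 CPM in normal M-CSF there (2.91 ± 0.20), and its relative Mgst3 at 38.9 ± 8.60 in low and 139 ± 25.5 CPM in normal M-CSF (-1.84 ± 0.19, edgeR adjusted p = 4.31e-10). Bach2, a repressor related to BACH1, stood at 15.3 ± 2.41 in low and 2.22 ± 0.832 CPM in normal M-CSF in WT without LPS (2.81 ± 0.37, edgeR adjusted p = 1.01e-07). Chac1, which degrades glutathione, was listed at 0 in all 4 WT libraries in low M-CSF without LPS, against 3.34 ± 1.16 CPM in normal M-CSF, and at 0.500 ± 0.199 CPM in low and 7.85 ± 2.22 CPM in normal M-CSF in T2KO without LPS. Dhodh, a mitochondrial enzyme of pyrimidine synthesis linked to ferroptosis defence, stood at 1.14 ± 1.34 in low and 5.96 ± 1.78 CPM in normal M-CSF in WT with LPS (-2.35 ± 0.53, edgeR adjusted p = 4.50e-04). Of the 17 other NRF2 target genes, 2 rose and 10 fell in T2KO with LPS, 3 rose and 6 fell in WT with LPS, 2 rose and 5 fell in T2KO without LPS, and 1 rose and 7 fell in WT without LPS. In the list of NRF2 and its regulators 6 of 10 rose and 0 fell in T2KO with LPS, with a median log2 difference of 0.71 against -0.14 over all genes.

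Interaction terms tested whether 1 factor changed the response to another. The Txnrd1 genotype difference depended on both medium and LPS. In low M-CSF the T2KO difference over WT was 1.22 with LPS and -0.17 without, an interaction of 1.39 ± 0.27 (edgeR adjusted p = 7.63e-04), and with LPS it was 1.22 in low and 0.05 in normal M-CSF, an interaction of 1.17 ± 0.27 (0.00884). Both were lost with like libraries summed (0.111 and 0.324). The Gpx3 genotype difference without LPS was larger in low than in normal M-CSF, by 1.56 ± 0.39 (edgeR adjusted p = 0.0132), also lost with like libraries summed (0.183). These were the members that passed in the interactions with genotype. The counts were 1 higher and 0 lower for genotype by LPS in low M-CSF (7.52% and 8.49% of all genes tested), 1 higher and 0 lower for genotype by M-CSF with LPS (2.20% and 3.29%), and 1 higher and 0 lower for genotype by M-CSF without LPS (1.41% and 3.21%). For genotype by LPS in normal M-CSF 0 passed with edgeR and 0 with DESeq2 (0.329% higher and 0.205% lower among all genes), while 1 of the 10 had an unadjusted p under 0.05. For Gclm, which differed by genotype in low M-CSF with and without LPS, the interaction with LPS was 0.57 ± 0.23 (edgeR adjusted p = 0.0849), which passed with DESeq2 (0.0238), with RLE size factors (0.044) and without WT low M-CSF library 1 with LPS (0.0487). Its interaction with M-CSF in the presence of LPS was 0.67 ± 0.23 (edgeR adjusted p = 0.0756), which passed with DESeq2 (0.0274) and without T2KO library 4 (0.045) or WT library 1 (0.0433) in low M-CSF.

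The LPS response depended on M-CSF for more members, and likewise for a larger share of all genes tested. In T2KO cells the log2 change with LPS was more positive in low than in normal M-CSF for 3 of the 10 and more negative for 3 (13.3% and 22.0% of all genes tested). In WT cells it was more positive for 3 and more negative for 1 (10.7% and 12.8%). The counts of more negative members were near the shares of all genes in both genotypes. Txnrd1 responded more in low M-CSF by 2.28 ± 0.27 in T2KO (edgeR adjusted p = 9.06e-08) and by 1.01 ± 0.27 in WT cells (0.00596), and Sod2 by 1.31 ± 0.24 in T2KO (6.99e-05) and 1.5 ± 0.24 in WT cells (1.74e-05). The WT value of Txnrd1 was lost with like libraries summed (0.165). Slc7a11 responded more by 2.57 ± 0.52 in T2KO (edgeR adjusted p = 2.73e-04), and its WT value of 1.21 ± 0.54 did not pass with edgeR (0.0995) but did with DESeq2 (0.0477). Gpx1, Gpx3 and Gpx4, which fell with LPS in T2KO cells in low M-CSF and did not pass in normal M-CSF, had interactions of -1.19 ± 0.29, -1.47 ± 0.40 and -0.82 ± 0.32 (edgeR adjusted p = 0.00153, 0.00406 and 0.042). The median of this interaction over all genes tested was -0.28. With like libraries summed, Gpx1 (0.0657) and Gpx4 (0.268) were lost and Gpx3 (0.0402) was not. The Gpx4 value was also lost with DESeq2 (0.0985), with RLE size factors (0.107) and without 1 library in 9 of 32 fits, namely T2KO low M-CSF libraries 1 and 3 with and without LPS, normal M-CSF libraries 1, 2 and 3 with LPS, and normal M-CSF libraries 1 and 3 without LPS (0.0549 to 0.1). Gclm, which fell with LPS in WT cells in low M-CSF (-0.78) and changed by 0.12 without passing in normal M-CSF, had an interaction of -0.90 ± 0.23 (edgeR adjusted p = 0.00431, lost with like libraries summed at 0.113). Srxn1 responded more in WT cells by 0.72 ± 0.26 (edgeR adjusted p = 0.0436), a call lost in 27 of the 32 fits without 1 library (0.0503 to 0.116), without the low-count filter (0.0828), with like libraries summed (0.267) and with only these groups in the fit (0.0851). In T2KO cells its value of 0.58 ± 0.26 did not pass with edgeR (0.0777) but did with DESeq2 (0.0141), with RLE size factors (0.0236), with only these groups in the fit (0.0468) and without low M-CSF library 1 without LPS (0.0441). For Gpx1 in WT cells the value of -0.65 ± 0.28 did not pass (edgeR adjusted p = 0.0931) except without low M-CSF library 4 with LPS (0.0273).

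The members varied by different amounts over the 8 groups. The range of group means on the log2 CPM scale was 7.57 for Slc7a11, 4.77 for Sod2, 3.98 for Gpx3, 3.52 for Txnrd1, 2.47 for Nqo1, 2.19 for Gpx1, 1.65 for Gclm, 1.63 for Srxn1, 1.59 for Prdx1 and 1.23 for Gpx4. Over the 8 group means the pairs with the highest Pearson correlation were Slc7a11 with Sod2 (0.99), Gpx3 with Gclm (0.97), Txnrd1 with Sod2 (0.94) and Slc7a11 with Txnrd1 (0.93). The lowest were Gpx1 with Gpx3, Gpx1 with Gclm, and Gpx4 with Txnrd1, each at -0.69. Among all genes tested, the closest patterns over the 8 group means were those of Lad1, Il27 and Ifi205 for Slc7a11 (0.998, 0.998 and 0.997), of Cd40, Ube2f and Acod1 for Sod2 (0.999 each), of Selenot, Eif1a and Aida for Txnrd1 (0.998, 0.990 and 0.989), and of Cd33, 5830444B04Rik and Afap1 for Gpx3 (0.985, 0.975 and 0.970). These correlations describe 8 group means that share 1 scaling, and they carry no test.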

How the data were processed

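Polyadenylated RNA was read from the 3' end after oligo-dT priming and PCR, per the labels' protocols, which mention no molecular identifiers. The authors deposited raw counts per Entrez gene, and the submitters' processing notes name STAR, HTSeq, DESeq2 and build mm10, while versions, annotation and strand setting are not given in the sources used here. Without a stated strand setting, reads of overlapping genes cannot be told apart. Symbols came from the RefSeq table by Entrez identifier (23969 of 24885 identifiers, 96.3%, with 99.5% of counts). Each column was mapped by its title. The 10 members and the pathway lists were chosen with earlier results of these data known.

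Counts were fitted with edgeR 4.0.16 (R 4.3.3) with TMM scaling, 1 coefficient per group over all 8 groups and filterByExpr, which left 11244 genes. The two-sided quasi-likelihood F test was run for 12 comparisons and 6 interactions, with Benjamini-Hochberg adjustment over all genes and a threshold of 0.05. CPM are TMM-scaled. Alternatives were RLE size factors, no low-count filter, a replicate block, DESeq2 1.42.0, like libraries summed in pairs, only the groups compared in the fit, and each library left out in turn (32 fits). All members were named; of the other pathway genes, at most the 3 largest rises and 3 largest falls that passed in each comparison, except where stated. Total counts were 3068863 to 15585423, so 3 counts, the most that a count of 0 allows at 95% confidence, came to 0.192 to 0.978 CPM of unscaled total.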

Additional observations from a re-analysis of the deposited data

Results flagged for a closer look

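In 10 of 80 sets of 4 libraries, 1 library stood farther from the rest than Dixon's critical value for 4 values allows. Chance flags about 1 in 20. In WT normal M-CSF without LPS these were library 1 for Prdx1 (4468 CPM), Sod2 (151 CPM) and Slc7a11 (1.63 CPM) and library 3 for Gpx1 (431 CPM) and Gclm (158 CPM). In WT normal M-CSF with LPS they were library 3 for Gpx3 (4.43 CPM) and library 1 for Srxn1 (83.7 CPM). In WT low M-CSF without LPS library 2 was high for Gclm (560 CPM) and low for Srxn1 (20.7 CPM), and in T2KO normal M-CSF with LPS library 1 was high for Slc7a11 (54.8 CPM).

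The response to 1 factor differed with another in 13 of 60 interaction tests of the members (edgeR adjusted p under 0.05). With genotype these were Txnrd1 by LPS in low M-CSF (1.39 on the log2 scale), Txnrd1 by M-CSF with LPS (1.17) and Gpx3 by M-CSF without LPS (1.56). For LPS by M-CSF in T2KO cells they were Slc7a11 (2.57), Txnrd1 (2.28), Sod2 (1.31), Gpx1 (-1.19), Gpx3 (-1.47) and Gpx4 (-0.82). For LPS by M-CSF in WT cells they were Sod2 (1.5), Txnrd1 (1.01), Srxn1 (0.72) and Gclm (-0.90).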

How the results depend on the processing

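Of the 62 member calls in the 12 comparisons and 13 in the 6 interactions, no called direction was reversed under any alternative run. RLE size factors kept 61 and 12 of them, no low-count filter 62 and 12, DESeq2 61 and 12, only the groups compared in the fit 58 and 12, and like libraries summed 45 and 5. The replicate block kept 62 and 12, losing the Gpx4 difference between media in the LPS response of T2KO cells (adjusted p = 0.0561), and moved no count of calls by over 1.5 times. The replicate numbers do not pair the libraries by any label, and 26 of 112 same-numbered pairs had deviations correlated above 0.1, with 12 of 32 libraries correlating best with their own number.

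With like libraries summed, which leaves 2 values a group, members called were 3 in place of 5 for T2KO against WT in low M-CSF with LPS, 1 in place of 2 without LPS and 0 in place of 2 in normal M-CSF with LPS. They were 3 in place of 6 for low against normal M-CSF in T2KO without LPS, 4 in place of 8 in WT without LPS, 5 in place of 8 for LPS in WT low M-CSF, 0 in place of 1 for each of the 3 interactions with genotype that had a call, and 1 in place of 4 for M-CSF by LPS in WT. With only the groups compared, T2KO against WT without LPS gave 1 in place of 2 in low M-CSF and 1 in place of 0 in normal M-CSF. DESeq2 gave 2 in place of 1 for genotype by M-CSF with LPS and for genotype by LPS in low M-CSF, and RLE gave 2 in place of 1 for genotype by LPS in low M-CSF. Without 1 library the range was 0 to 3 for T2KO against WT in normal M-CSF with LPS, 5 to 8 for low against normal M-CSF in WT without LPS, and 1 to 2 for both of those interactions. Apart from fewer values a group, the cause was not tested.

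Over all genes, summing like libraries gave 485 in place of 2147 calls for T2KO against WT in low M-CSF with LPS, 621 in place of 1879 without LPS, 43 in place of 454 in normal M-CSF with LPS and 39 in place of 209 without. It gave 2969 in place of 4983 for low against normal M-CSF in WT without LPS, 3327 in place of 5132 with LPS, 3539 in place of 5422 in T2KO without LPS, and 2594 in place of 4061 for LPS in WT normal M-CSF. For genotype by M-CSF it gave 97 in place of 519 without LPS and 1 in place of 617 with LPS, for genotype by LPS 91 in place of 1800 in low and 0 in place of 60 in normal M-CSF, and for M-CSF by LPS 1702 in place of 3971 in T2KO and 853 in place of 2649 in WT. DESeq2 gave 693 and 359 for T2KO against WT in normal M-CSF with and without LPS, 945 for genotype by M-CSF with LPS and 188 for genotype by LPS in normal M-CSF. Only the groups compared gave 1037 and 866 for T2KO against WT with LPS in low and normal M-CSF, and 959 and 120 for genotype by LPS in low and normal M-CSF, and no low-count filter gave 102 for the last.

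RLE scaling moved the share of calls that were higher to 53.2% from 42.9% with TMM in T2KO against WT in low M-CSF with LPS, to 53.6% from 40% for genotype by M-CSF with LPS, to 60.8% from 46.9% (DESeq2 58.5%) for genotype by LPS in low M-CSF, and to 50.4% from 37.6% (DESeq2 48.9%) for M-CSF by LPS in T2KO. By smaller shifts it also carried that share across the middle for T2KO against WT in normal M-CSF with LPS (50.9% from 49.1%), for low against normal M-CSF with LPS in T2KO (52.6% from 44.7%) and WT (54.4% from 46.9%), for LPS in WT normal M-CSF (44.5% from 50.6%) and for M-CSF by LPS in WT (52.8% from 45.5%). It moved the median of all genes to 0.01 from -0.10 for low against normal M-CSF with LPS in WT, to 0.02 from -0.14 in T2KO, and to -0.25 from -0.36 for LPS in T2KO low M-CSF. Among the interactions it moved that median to -0.11 from -0.28 for M-CSF by LPS in T2KO, and to -0.02 from -0.13 for genotype by LPS in low M-CSF. Low counts limit Nqo1, Gpx3 in normal M-CSF and Slc7a11 without LPS.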
